A study of Mus musculus with 2 samples.

Results

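The 9 genes described here are 6 matrix metalloproteinase (MMP) genes, Mmp2, Mmp3, Mmp9, Mmp10, Mmp13 and Mmp14, and 3 genes for tissue inhibitors of metalloproteinases (TIMPs), Timp1, Timp2 and Timp3. They were chosen by name, with earlier results of these data known. All 9 were found in the RefSeq annotation of GRCm38, which held 21883 protein-coding genes on mouse chromosomes 1 to 19, X and Y. Each was examined for RUNX2 CUT&Tag peaks inside its annotated span or within 100 kb of either end. The data are the peak lists of 2 replicate libraries from untreated MC3T3-E1, a mouse line of osteoblast precursors. The libraries form a single group with no control library. CUT&Tag uses an antibody, here against the osteoblast transcription factor RUNX2, to bring a transposase to the chromatin that the protein occupies. The lists held 26853 peaks in replicate 1 and 27287 in replicate 2, and each peak is given by position and width alone. They hold no height or read number, so depth is unknown, and with no contrast in the design no test between groups was made. Nothing in the labels ties the replicates to separate cultures, so differences between them may be technical. A region in which peaks of both lists overlapped by at least 1 bp is called shared, and its position is its midpoint. On these chromosomes there were 18128 shared regions, of which 44 fell in the windows of the 9 genes, each in the window of a single gene. These took in 56 peaks of replicate 1 and 57 peaks of replicate 2, counting those of a single replicate. The lists measure no expression. Of the osteoblast genes Runx2, Sp7, Alpl, Col1a1 and Bglap, 3 of 5 had a shared region inside or within 10 kb, and of the osteoclast and macrophage genes Acp5, Ctsk, Csf1r and Ptprc, 1 of 4 did, against 52.6% of all protein-coding genes. Lists this short carry no result on cell type.

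MMPs are zinc-dependent proteases that are secreted or held at the cell surface and cut collagens and other proteins of the extracellular matrix. Most are made as inactive proenzymes, and TIMPs bind the active enzymes and block them. In bone, osteoblasts and osteocytes use MMPs to remodel collagen, and RUNX2 is known to act on the collagenase gene Mmp13 together with AP-1 factors.

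The promoter sequences of 5 members are shown because some of their starts lay under peaks and others did not. They come from RefSeq (GRCm38.p6) and run from 250 bases before to 50 bases after the annotated start, which is base 251, in the direction of the gene. The table held such a window for 7 of the 9 members. The windows are chrX:20869916-20870215 (+) for Timp1, chr11:118355362-118355661 (-) for Timp2 and chr10:86300162-86300461 (+) for Timp3. In these 3, capitals mark the bases that lay inside peaks of both replicates.
Timp1: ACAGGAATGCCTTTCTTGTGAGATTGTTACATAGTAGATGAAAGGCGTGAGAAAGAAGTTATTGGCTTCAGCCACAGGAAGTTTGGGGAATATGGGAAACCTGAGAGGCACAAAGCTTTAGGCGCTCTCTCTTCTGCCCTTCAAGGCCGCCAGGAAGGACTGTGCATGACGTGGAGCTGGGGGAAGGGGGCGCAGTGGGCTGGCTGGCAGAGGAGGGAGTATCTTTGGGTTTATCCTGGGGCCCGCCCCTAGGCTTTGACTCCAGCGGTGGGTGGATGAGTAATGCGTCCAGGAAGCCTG
Timp2: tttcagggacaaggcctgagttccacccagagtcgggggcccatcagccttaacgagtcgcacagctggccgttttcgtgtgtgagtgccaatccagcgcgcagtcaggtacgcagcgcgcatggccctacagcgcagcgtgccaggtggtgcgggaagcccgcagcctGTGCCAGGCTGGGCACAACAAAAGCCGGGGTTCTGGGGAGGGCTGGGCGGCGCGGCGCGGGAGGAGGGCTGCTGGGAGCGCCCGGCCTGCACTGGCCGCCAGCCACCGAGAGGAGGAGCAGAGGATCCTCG
Timp3: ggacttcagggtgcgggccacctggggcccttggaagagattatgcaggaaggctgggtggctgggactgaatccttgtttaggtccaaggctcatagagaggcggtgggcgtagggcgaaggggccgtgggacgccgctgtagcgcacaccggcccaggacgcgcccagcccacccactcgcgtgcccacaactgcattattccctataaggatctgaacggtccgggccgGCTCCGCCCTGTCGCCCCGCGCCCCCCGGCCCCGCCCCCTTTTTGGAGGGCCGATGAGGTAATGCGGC
All 300 bases of the Timp1 window lay under peaks of both replicates. In the Timp2 window this was true of 131 bases, from base 170 to base 300, and in the Timp3 window of 68 bases, from base 233 to base 300. The windows of Mmp13, chr9:7272264-7272563 (+), and Mmp14, chr14:54431348-54431647 (+), touched no peak of either replicate. In these, capitals mark matches to the RUNX core (TGTGGT, or ACCACA on the opposite strand) and to the AP-1 motif (TGANTCA, which reads the same on both strands). The matches do not overlap.
Mmp13: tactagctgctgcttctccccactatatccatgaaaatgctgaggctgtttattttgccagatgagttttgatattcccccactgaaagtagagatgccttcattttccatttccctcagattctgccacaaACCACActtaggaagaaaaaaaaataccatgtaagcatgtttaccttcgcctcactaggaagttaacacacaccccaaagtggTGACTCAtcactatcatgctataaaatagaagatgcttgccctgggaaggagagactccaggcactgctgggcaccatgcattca
Mmp14: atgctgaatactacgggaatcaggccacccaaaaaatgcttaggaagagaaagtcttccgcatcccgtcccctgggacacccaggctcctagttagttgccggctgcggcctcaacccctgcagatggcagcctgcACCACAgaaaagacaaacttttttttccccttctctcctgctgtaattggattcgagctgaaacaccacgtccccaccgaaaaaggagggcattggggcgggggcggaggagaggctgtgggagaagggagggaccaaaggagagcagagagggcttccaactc
Mmp13 held ACCACA at bases 133 to 138 and TGACTCA at bases 216 to 222, and Mmp14 held ACCACA at bases 137 to 142. The windows of Mmp3 and Mmp10 held the AP-1 match TGAGTCA at bases 205 to 211 and 188 to 194, and no RUNX core. None of the 3 TIMP windows held an exact match to either motif, and near matches were not searched for. A RUNX core was present in 15.0% and an AP-1 match in 6.99% of the 21262 promoter windows in the table, which belong to 17491 protein-coding genes. A match describes letters in a window of this length and shows neither binding nor its absence. The windows also differed in base composition, with a GC content of 55.0% for Timp1, 68.7% for Timp2, 67.0% for Timp3, 56.0% for Mmp14, 43.7% for Mmp13, 40.0% for Mmp3 and 37.7% for Mmp10. The median over these 21262 windows was 56.3%.

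The members differed widely in shared regions within 100 kb, with 12 at Timp2 and 9 at Mmp14, 4 to 7 at Timp3, Timp1, Mmp9 and Mmp2, and 1 or 0 at the 3 MMP genes of the chromosome 9 cluster. Inside the gene, 4 of 9 members had a shared region (Mmp2, Mmp14, Timp2 and Timp3), against 30.4% of all protein-coding genes. Timp2 (54351 bp), Timp3 (49094 bp) and Mmp2 (26132 bp) are the longest members, and the part of gene length was not tested. Inside or within 10 kb of either end, 6 of 9 had one (the same 4 with Mmp9 and Timp1), against 52.6%. Within 100 kb the count was 7 of 9, Mmp13 being added, against 77.6%. With 9 genes, these shares lie near those of genes at large, and they single out no property of the list. Taking either replicate alone left the counts at 6 and 7 members, where 60.6% of protein-coding genes had a replicate 1 peak and 60.7% a replicate 2 peak within 10 kb, and 81.6% and 82.0% within 100 kb.

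**Figure D1:**
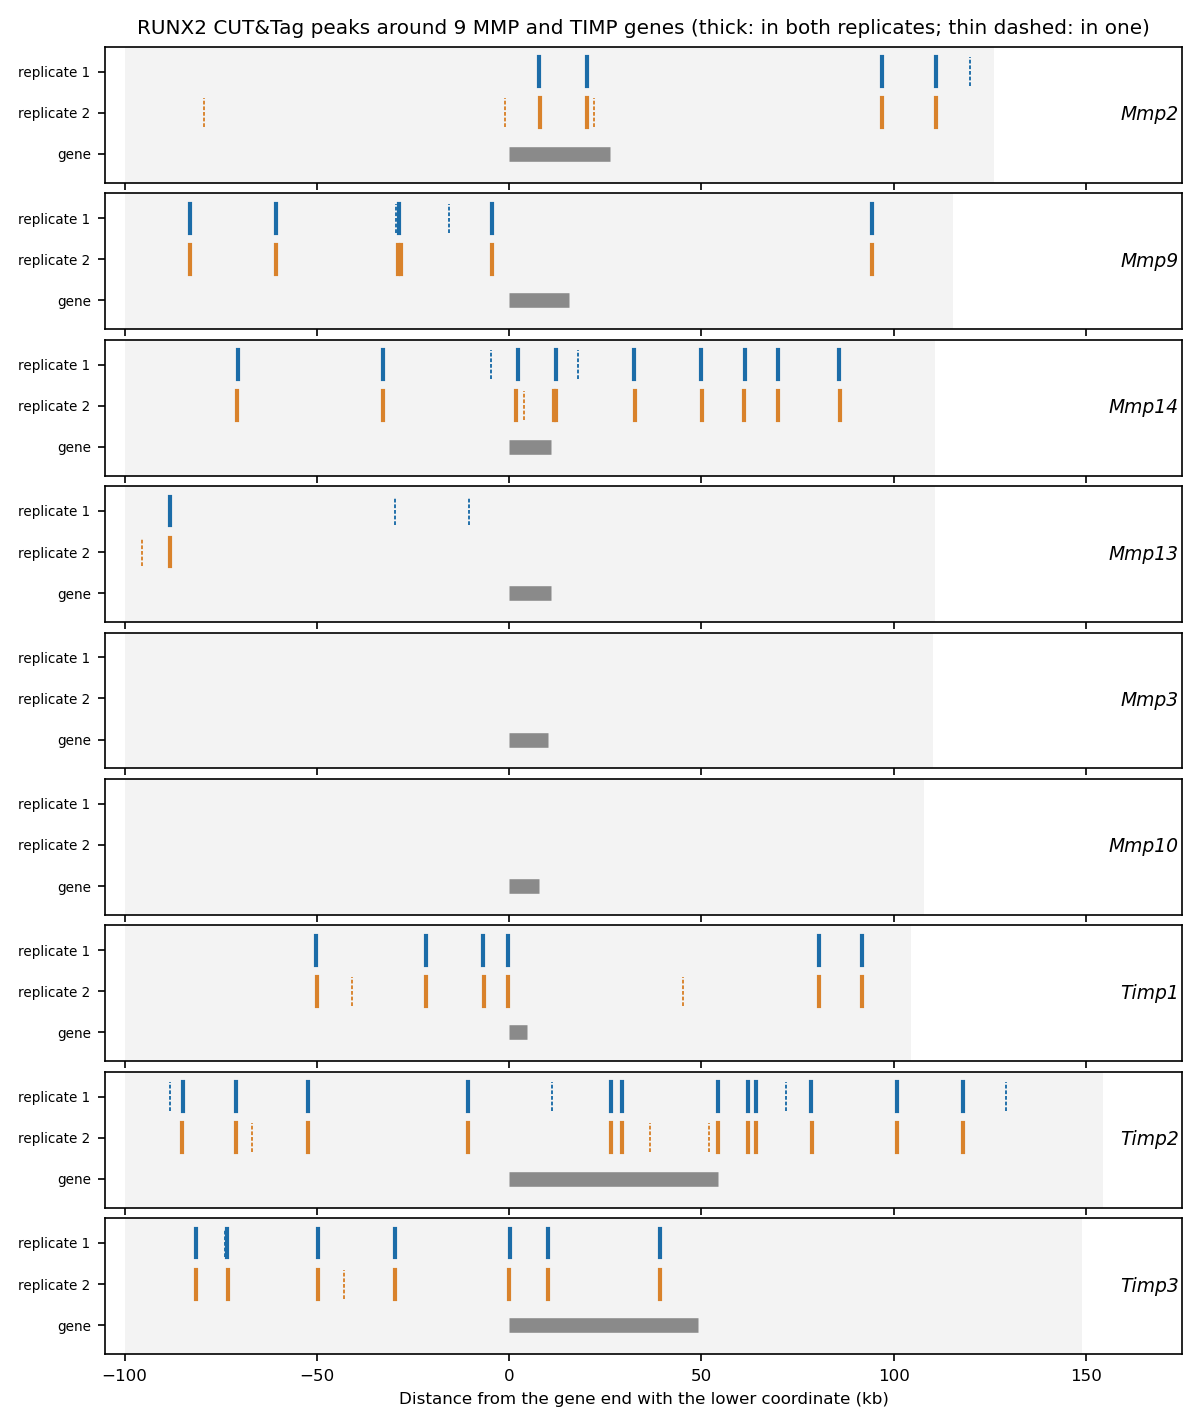
Peaks of replicate 1 (blue) and replicate 2 (orange) by their midpoints, in kb from the gene end with the lower coordinate, for each of the 9 genes; the grey bar is the gene and the shaded area is the window of 100 kb on either side. Thick marks are peaks that overlapped a peak of the other replicate and thin dashed marks are peaks of a single replicate; Timp2 has 12 shared regions, Mmp13 has 1, and Mmp3 and Mmp10 have no peak.

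By the number of shared regions within 100 kb, Timp2 came first with 12, from 16 peaks in replicate 1 and 15 in replicate 2. Mmp14 followed with 9, from 11 peaks in each replicate. Timp3 had 7, from 8 peaks in each, and Timp1 had 6, from 6 peaks in replicate 1 and 8 in replicate 2. The order of Timp1, Mmp9 and Mmp2 is within the difference between replicates, while Timp3 had more peaks than Mmp9 and Mmp2 in both. Mmp9 had 5 shared regions from 7 and 6 peaks, and Mmp2 had 4 from 5 peaks in replicate 1 and 7 in replicate 2, so the peak counts of Timp1 overlap those of Timp3, Mmp9 and Mmp2. Mmp13 had 1 shared region, from 3 peaks in replicate 1 and 2 in replicate 2, and Mmp3 and Mmp10 had no peak in either replicate. The median over the 9 members was 5 shared regions, against 3 over all protein-coding genes (quartiles 1 and 5). Fewer shared regions than Timp2 were counted for 98.8% of protein-coding genes, and fewer than Mmp14 for 94.0%. A count of 0, as for Mmp3 and Mmp10, was shared by 22.4% of them. The windows differ in length, since they include the gene, and in what else they hold. They reach 7 other protein-coding genes for Mmp14 and for Mmp9, 6 for Timp2, 5 for Timp1, 4 for each gene of the chromosome 9 cluster, 2 for Mmp2 and 1 for Timp3.

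**Figure D2:**
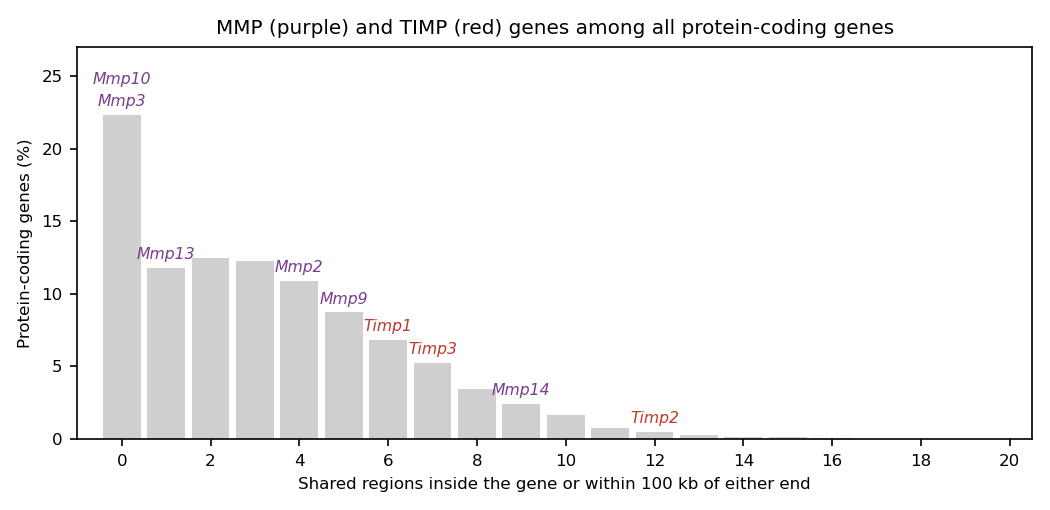
Share of all 21883 protein-coding genes (grey bars, %) by the number of shared regions inside the gene or within 100 kb of either end, with each MMP (purple) and TIMP (red) gene named above the bar of its own count. The members run from Mmp3 and Mmp10 at 0 to Timp2 at 12.

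Timp1, Timp2 and Timp3 each had a shared region over the annotated start, and no MMP gene with a start in the table did. Of the 7 members with a start in the promoter table, the start lay under a shared region in 3 (Timp1, Timp2 and Timp3), against 30.2% of 17491 protein-coding genes. The 4 MMP genes with such a start, Mmp3, Mmp10, Mmp13 and Mmp14, had none. Mmp3, Mmp10 and Mmp13 lie in a single stretch of chromosome 9 without a peak in either replicate. Their starts are therefore not separate cases, and Mmp2 and Mmp9 had no start in the table. Counting midpoints within 1 kb of either gene end covers all 9 members. The same 3 TIMP genes had a region there, against 32.0% of protein-coding genes. With a limit of 3 kb the count was 4 members, Mmp14 being added, against 37.6%. In replicate 2 alone, Mmp14 also had a peak within 1 kb of an end, 161 bp wide and 860 bp beyond its far end. Of protein-coding genes, 37.0% had a replicate 2 peak within 1 kb of an end. With 7 starts, the difference between the families describes these genes, and no test was made of it.

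Timp1 (chromosome X, 20870166 to 20874737) encodes a secreted inhibitor of most MMPs and carried the widest of the start regions. It ran from 20869318 to 20870332, with a peak of 981 bp in replicate 1 and 957 bp in replicate 2, at percentiles 96.0 and 95.3 of the widths in each list. Its midpoint lay 341 bp before the start. The peaks agreed closely, 90.9% of the region being covered in both replicates. A further region lay 6698 bp before the start (517 bp in replicate 1 and 419 bp in replicate 2). Both lie inside the neuronal synapsin gene Syn1, which overlaps Timp1 and runs the other way. No peak lay inside Timp1 by its midpoint. The remaining 4 regions of the window belonged by position to other genes, being over the starts of Araf, Elk1 and Uxt or inside Araf.

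Timp2 (chromosome 11, 118301061 to 118355411, minus strand) encodes an inhibitor that also takes part in the activation of pro-MMP2 at the cell surface. Its start region, 118355310 to 118355615, was narrow, with a peak of 306 bp in replicate 1 and 163 bp in replicate 2. These sat at percentiles 34.6 and 1.0 of their lists. Wider regions lay inside the gene. The one from 118327107 to 118327990 was 776 bp in replicate 1 and 712 bp in replicate 2 and lay 27863 bp from the start. Its neighbour from 118330082 to 118330615 was 437 and 443 bp wide and lay 25063 bp from the start. Upstream, regions stood 7859 bp (545 and 399 bp wide), 9951 bp (307 and 308 bp) and 24320 bp (827 and 877 bp) beyond the start. The last of these was nearer to Lgals3bp, 13016 bp away, and was the widest in the window in both replicates. Timp2 also had most of the single-replicate peaks inside a member, 1 in replicate 1 (190 bp) and 2 in replicate 2 (443 and 219 bp). The 443 bp peak also lies in Cep295nl, a gene within Timp2.

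Timp3 (chromosome 10, 86300412 to 86349505) encodes the inhibitor that binds to the extracellular matrix, and it lies within the synapsin gene Syn3. Its start region, from 86300374 to 86300846, measured 453 bp in replicate 1 and 260 bp in replicate 2. Inside the gene, regions stood 10245 bp (476 and 280 bp wide) and 39299 bp (759 and 650 bp) from the start. Before the start, 4 regions lay in Syn3, at 29769, 49629, 73193 and 81308 bp. The Timp3 start was the nearest coding start in the promoter table for all 7 regions of this window, and none covered the start of another coding gene. In bp, width differed most between replicates at the farthest of these, with 399 bp in replicate 1 and 866 bp in replicate 2.

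Mmp14 (chromosome 14, 54431598 to 54442456) encodes a membrane-anchored MMP that cuts fibrillar collagen and activates pro-MMP2. Of its near regions, one lay inside the gene and one just beyond its far end, and neither covered the start. One, from 54433345 to 54434272, had its midpoint 2210 bp after the start and measured 928 bp in replicate 1 and 347 bp in replicate 2. Another, from 54443236 to 54444134, had its midpoint 1229 bp beyond the gene's far end. It was a single peak of 815 bp in replicate 1 and a pair of 161 and 467 bp in replicate 2. Peaks of a single replicate lay 4637 bp before the start (413 bp, replicate 1, inside Mrpl52), 6955 bp beyond the far end (350 bp, replicate 1) and inside the gene (289 bp, replicate 2). The other 7 shared regions of the window were nearest to Oxa1l, Slc7a7, Lrp10, Rem2 and Prmt5. The one at Lrp10 was called shared on an overlap of 4 bp between peaks of 259 and 195 bp.

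Mmp2 (chromosome 8, 92827290 to 92853421) encodes gelatinase A, which degrades denatured collagen and basement membrane collagen. Both of its nearby shared regions were inside the gene and were narrow in replicate 2. The first, 92834926 to 92835401, measured 476 bp in replicate 1 and 177 bp in replicate 2. The second, 92847296 to 92847660, measured 329 bp and 218 bp. Replicate 2 alone had 2 more peaks at the gene, one of 190 bp with its midpoint 1156 bp below the low end and one of 443 bp inside. The widest peaks in the window lay far off, 84997 bp above the gene and nearer to the lipid enzyme gene Lpcat2, at 974 bp in replicate 1 and 988 bp in replicate 2.

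Mmp9 (chromosome 2, 164940326 to 164955850) encodes gelatinase B, a protease prominent in osteoclasts. It had no peak inside the gene in either replicate. A single shared region had Mmp9 as its nearest protein-coding gene, from 164935750 to 164936121, 4391 bp below the low end. Its peaks measured 248 bp in replicate 1 and 315 bp in replicate 2, below the median width of 395 bp in each list. The other 4 shared regions of the window covered the starts of Pltp, Pcif1, Zfp335 and Ncoa5. Their widest peaks ran from 615 to 936 bp in replicate 1 and from 538 to 921 bp in replicate 2.

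Mmp13 (chromosome 9, 7272514 to 7283333) encodes the main collagenase of mouse bone and cartilage, and its one shared region belonged by position to another gene. That region, 7184164 to 7184585, covered the start of Dcun1d5 and had its midpoint 88140 bp before Mmp13. Nearer to Mmp13, replicate 1 had a peak of 554 bp from 7261727 to 7262280, 10511 bp before the start, and a peak of 189 bp 29615 bp before it. Replicate 2 had no peak at either place. The 554 bp peak was at percentile 70.6 of its list, and 86.1% of the replicate 1 peaks in its width class (466 to 653 bp) were shared. For the class of the 189 bp peak (163 to 236 bp) this was 36.0%. Distal enhancers upstream of Mmp13 have been described in mouse osteoblastic cells, and whether these peaks mark them was not tested.

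Mmp3 (chromosome 9, 7445822 to 7455975) and Mmp10 (chromosome 9, 7502342 to 7510242) encode stromelysins, which cut many matrix proteins and activate other MMPs. They lie in the same cluster as Mmp13, which holds 10 MMP genes in 427072 bp, from Mmp13 to Mmp7. No peak of either replicate lay in the cluster. The stretch without a peak ran from 7262281 to 7753821, a length of 491541 bp, and contained no coding gene outside the MMP family. It was bounded by the replicate 1 peak before Mmp13 and by a shared region between Mmp7 and Tmem123. Such stretches were not rare. Of the 35595 stretches between neighbouring peaks, with a median of 23.0 kb, 783 were at least as long (2.20%), and together these made up 43.2% of the length between peaks. Of the 783, 92 held at least 10 protein-coding genes. The lists contain called peaks only, and signal below the calling limit cannot be seen in them.

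**Figure D3:**
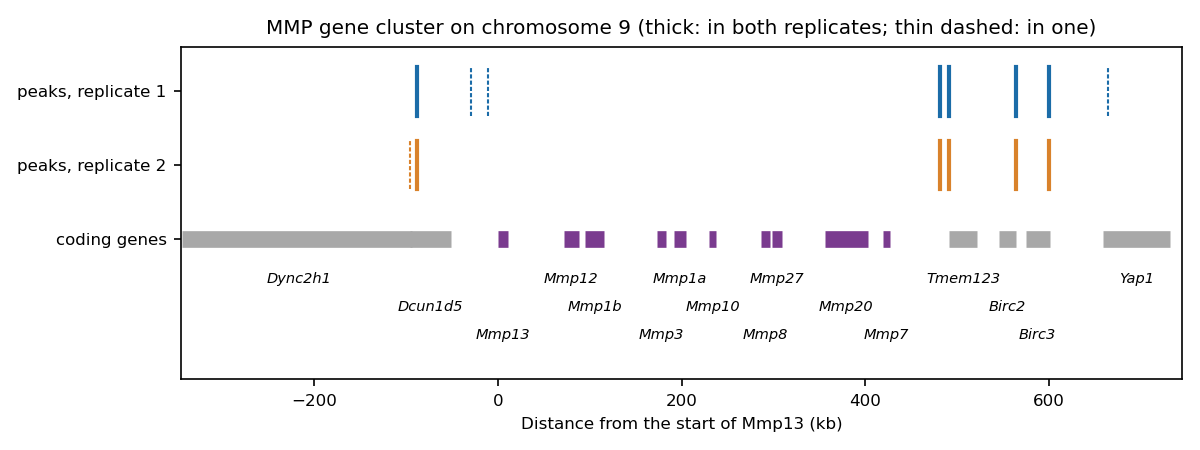
Peaks of replicate 1 (blue) and replicate 2 (orange) and coding genes (MMP genes purple, others grey) along chromosome 9, in kb from the start of Mmp13; thick marks overlapped a peak of the other replicate and thin dashed marks did not. No mark falls between the replicate 1 peak 10511 bp before Mmp13 and the shared region beyond Mmp7, a stretch of 491541 bp.

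Most of the shared regions within 100 kb of the members lay closer to other genes. Of the 44, 13 had a member as nearest protein-coding gene, alone or beside a gene that overlaps it, and 8 of these lay inside the member. At least 14 of the 44 covered an annotated start of a coding gene that is not a member, and 3 covered the start of a TIMP. Timp2 was the nearest coding gene for 5 of its 12 regions, Timp3 for 3 of 7 (shared with Syn3), Mmp14 for 2 of 9, Mmp2 for 2 of 4 and Mmp9 for 1 of 5. It was so for none of the 6 regions of Timp1 or the 1 of Mmp13, and the Timp1 start region counted for Syn1 because its midpoint lay outside Timp1. The same counts over the windows of all protein-coding genes were not made, so these counts show no trait of the members. Nearness in sequence does not show which gene a region acts on.

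Most peaks around the members were found again in the other replicate, a share whose interval holds that of other peaks in replicate 1 and lies just above it in replicate 2. In replicate 1, 44 of 56 peaks were shared (78.6%, 95% Wilson interval 66.2 to 87.3), against 68.2% of all other peaks (67.7 to 68.8). In replicate 2 it was 46 of 57 (80.7%, 68.7 to 88.9), against 67.1% of all other peaks (66.6 to 67.7). These intervals cover counting error only, and neighbouring peaks are not independent. Peaks in the members' windows had a median width of 460 bp in replicate 1 and 420 bp in replicate 2, against 395 bp for the other peaks of each list. Wider peaks were shared more often throughout the lists, so the part of width in the higher shares was not tested. In both replicates the widest peak of the region exceeded the median of its list in 25 of 44 regions. Of the 8 regions inside members, this held for 3, at Timp2 (2) and Timp3 (1). The same count over all 18128 shared regions was not made, so these counts show no trait of the members. The 12 peaks of replicate 1 and 11 of replicate 2 without a partner ranged from 166 to 554 bp and from 190 to 443 bp, the widest being the replicate 1 peak before Mmp13.

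**Figure D4:**
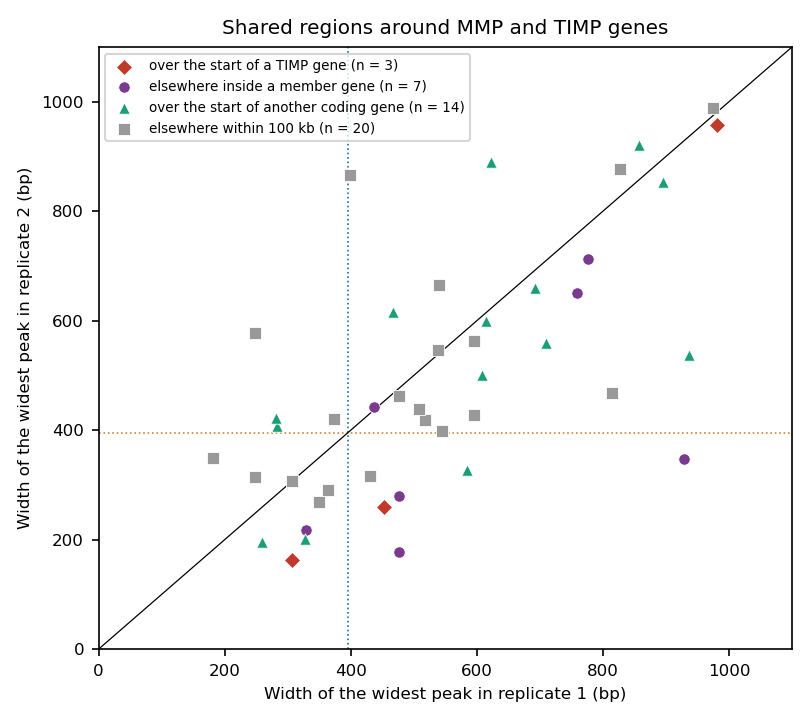
Width (bp) of the widest peak of each of the 44 shared regions in replicate 1 (x) and replicate 2 (y); symbols give the place of the region, the solid line marks equal widths and dotted lines the median of each list (395 bp). The Timp1 start region lies at 981 and 957 bp, and the Timp2 and Timp3 start regions lie below the median in replicate 2, at 163 and 260 bp.

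Other genes of the matrix protease system were read in the same way. Among 17 further MMP genes and Timp4, 2 of 18 had a shared region inside, 7 within 10 kb and 13 within 100 kb. The shares of all protein-coding genes, against which this list and the next ones are to be read, were 30.4% inside, 52.6% within 10 kb and 77.6% within 100 kb. None of the 14 further MMP genes with a start in the promoter table had a shared region over it. Of protein-coding genes with such a start, 30.2% did. Mmp1a, Mmp1b, Mmp7, Mmp8, Mmp12, Mmp20 and Mmp27, among the 14, lie in the chromosome 9 stretch without a peak and are not separate cases. Mmp24, which encodes a membrane-type MMP, Mmp19 and Mmp28 had the most within 10 kb, with 2 each. The nearest at Mmp24 lay 958 bp outside the gene. The Timp4 start lay under no region, and the nearest was 19789 bp away. Among 25 ADAM and ADAMTS proteases, which shed surface proteins or cut proteoglycans and procollagen, 10 had a region inside, 15 within 10 kb and 20 within 100 kb. Adamts12 had 8 within 10 kb, Adamts16 had 5 and Adam12 had 3, and these are long genes of 284460, 114048 and 341899 bp. Among 18 activators, clearance receptors and other inhibitors, 7 had a region inside, 13 within 10 kb and 17 within 100 kb. Lrp1, which encodes a receptor that takes up MMP and TIMP complexes, had 5 within 10 kb, and the syndecan gene Sdc4 and the thrombospondin gene Thbs2 had 3 each. Reck, which encodes a membrane-anchored MMP inhibitor, had 2. The median number of shared regions within 100 kb was 2 for the further MMP genes with Timp4, 2 for the ADAM and ADAMTS genes and 7 for the activators and inhibitors, against 3 for all protein-coding genes. Mmp24, Mmp19, Mmp28, Adamts12, Adamts16, Adam12, Lrp1, Sdc4 and Thbs2 are named as those with most regions in their list, and Timp4 and Reck were added after their values were seen.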

How the data were processed

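Peaks were listed by the authors for each replicate on its own. Per the submitters' processing notes, fastp 0.19.6, Bowtie2 and deepTools were used on the build GRCm38 (mm10). The sources used here do not give the peak caller, its threshold or any control. Each deposited list has no header and 5 columns, read from the values as number, chromosome, start, end and width (end minus start plus 1 in every line).

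Genes came from a RefSeq table (GRCm38.p6) and annotated starts and strands from a RefSeq promoter table. Overlaps were computed in Python 3.11.15 with pandas 2.3.3, equalled the bedtools 2.31.1 count, and were tested on simulated peaks. Wilson intervals used scipy 1.17.1. The members and gene lists were chosen with earlier results of these data known. Named genes are the members, the genes nearest to their regions, the 3 of each list with most regions within 10 kb (ties by width), and genes bounding the cluster. The planned rule for sequences inside peaks was not run, for want of a genome here. Alternatives were a reciprocal overlap of 50%, peaks above the median width, single replicates, other distances and nearest-gene links. Those for starts were added after the data were seen.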

Additional observations from a re-analysis of the deposited data

How the results depend on the processing

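The counts of members with a shared region within 10 kb (6) and 100 kb (7) stayed within 1.5 times under all alternatives run. They ran from 4 to 6 and from 5 to 7. Where computed, the share of all protein-coding genes ran from 36.0% to 60.7% within 10 kb. With the window held at 100 kb it ran from 66.3% to 82.0%. Windows of 50 kb and 10 kb in its place gave 69.8% and 52.6%, so the settings moved genes at large too. With only peaks above the median width, members with a region inside came to 2 in place of 4. Among all protein-coding genes, this share fell from 30.4% to 18.9%. The regions in the windows came to 25 in place of 44, and TIMP genes with a region over the start to 1 (Timp1) in place of 3. The same change over all regions and all starts was not computed. With regions counted only where a member was the nearest protein-coding gene, 13 of 44 remained, and the same count for genes at large was not made. A reciprocal overlap of at least 50% lowered the shared part of the peaks to 66.1% in replicate 1 and 64.9% in replicate 2, and kept 37 of 44 member regions (84.1%) against 75.4% of all shared regions. Under it the 3 TIMP starts stayed covered. No member MMP start in the promoter table was covered under any alternative. Leaving out 1 replicate gave 4 members inside, 6 within 10 kb and 7 within 100 kb each time. It gave 56 to 57 regions in all, 3 to 4 members with one at an end and 3 TIMP starts. Of all protein-coding genes, 37.7% to 37.8% then had a peak inside and 36.9% to 37.0% had one at an end. For the 7 members with any region, 20 of 35 alternative counts stayed within 1.5 times, and Mmp3 and Mmp10 were at 0 throughout, where stricter settings cannot move them. The cause of these differences beyond the narrower choice of peaks was not tested. Depth is unknown and limits what the lists can show at Mmp3, Mmp10 and Mmp13. No paired analysis was possible because the series has a single group.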

Other observations

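The promoter windows of the 17491 protein-coding genes in the table were divided into those touched by a shared region and the others, with no test between them. The RUNX core was present in 787 of 6585 touched windows (12.0%) and in 2396 of 14677 untouched windows (16.3%). The AP-1 match was present in 288 touched windows (4.37%) and in 1198 untouched windows (8.16%). Base composition differed too. The median GC content was 62.0% in touched and 53.0% in untouched windows, and the median number of CG dinucleotides was 23 in touched and 6 in untouched windows. The part of base composition in these shares was not tested. Timp2 and Timp3, with 25 and 24 CG dinucleotides, were close to the median of touched windows, Timp1 had 8, and the untouched windows of Mmp14, Mmp10, Mmp3 and Mmp13 had 10, 2, 1 and 1.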
